A study of Gallus gallus with 88 samples.

Results

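The development of hind muscle (M. gastrocnemius, a calf muscle) between embryonic day (ED) 10 and ED13 was followed in broiler embryos that had been incubated at a lowered temperature. The L10 embryos were kept at 36.8 °C during ED7–10 and sampled at ED10, and the L13 embryos were kept at 36.8 °C during ED10–13 and sampled at ED13. Both groups held 8 embryos with 1 array each, so 16 of the 88 arrays of the series were chosen, by the group names in the sample titles. All embryos came from a commercial broiler line without any genetic modification. Outside the treatment interval every egg was kept at 37.8 °C. The control embryos (C10 and C13, 8 each) stayed at 37.8 °C during the intervals, and the warmed embryos (H10 and H13, 8 each) were kept at 38.8 °C. By the study's methods the warmed eggs also had a higher relative humidity, while cooled and control eggs shared theirs. Because L10 and L13 differ in age and also in the days on which they were cooled, age and treatment interval cannot be told apart within the cooled embryos alone, which is why the same step in C and H embryos is given beside it.

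In this period the muscles of the chicken hind limb grow and differentiate. Myoblasts leave the cell cycle, fuse to multinucleated fibres and build sarcomeres, the contractile units in which myosin thick filaments slide along actin thin filaments between Z-discs. The limb around them holds mesenchyme that expresses patterning genes, cartilage of the growing skeleton and skin that forms feathers, and red blood cells switch from embryonic to later globins.

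The values were log2 signals of 20706 probe sets, and array medians of the cooled embryos lay between 7.90 and 8.23. The background level, set at the 95th percentile over 23 control probe sets for background, was 9.71, and 4905 probe sets lay above it in the cooled embryos. It is a strict level, since the median of every array lies below it. Genes described below without a note on it can lie under it too. The gene lists differed in this. In L10 or L13, 5 of 15 muscle ubiquitin ligase genes and 16 of 40 limb patterning genes had a mean above it. So had 4 of 18 cartilage markers, 1 of 16 leukocyte markers and 46 of 47 cytosolic ribosomal protein genes. Examples with all cooled arrays under it are PPP1R3A, PFKM, COLQ, TRDN, ANKRD1, ENO2, FST, MATN1, SOX9, IGF2 and CD4. Where every array of a group lay under the background level, a printed difference is one of measured signals only. The fold of the higher group's mean against that level is given for the genes the results turn on. Arrays correlated with the others of their group at a median r of 0.942 to 0.965. The W-linked gene HINTW, which only female birds carry, was high in 3 of 8 L10 and 4 of 8 L13 embryos. The sarcomeric actin gene ACTA1 had a mean of 13.45 in L10 and 13.95 in L13, so muscle was present in both groups. A pair of arrays stood apart. The L10 array of embryo 59 stood far below the other L10 arrays in the mean of 4 gene lists. The L13 array of embryo 75 had the lowest mean of 13 skin and feather markers, 6.38 against 8.22 to 10.38 in the other L13 arrays. The tissue is a whole muscle sample, in which fewer cells of a type and less RNA per cell cannot be told apart.

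From L10 to L13, 2020 probe sets rose (9.76% of those tested) and 3150 fell (15.2%) at an adjusted p of 0.05. Changes of at least 1 log2 unit, which is a doubling or halving of the signal, were found in 338 probe sets that rose (1.63%) and 175 that fell (0.845%). Every L13 array lay above every L10 array in 695 probe sets (3.36%), and every L13 array lay below every L10 array in 884 (4.27%). Of the larger changes, 129 rises and 34 falls belonged to probe sets without a single gene symbol and are unnamed here. Without both arrays that stood apart, 1837 probe sets rose and 3654 fell. Among the fewer probe sets with a mean over all 48 embryo arrays above the background level, 753 rose and 1168 fell. These are not the 4905 probe sets counted above, so no share of those is given, and the lower counts do not mean a lower share. The filter also drops genes that were bright at only ED10 or ED13, such as MYH1C, PLIN1 and CRHBP. The median change of all probe sets was -0.03 log2 units, and the counts in the gene lists are to be read against these shares of all probe sets.

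MYH1C, a gene of the contractile apparatus, rose. It encodes a fast skeletal myosin heavy chain, the motor protein of the thick filament. Its log2 signal ran from 5.05 over a median of 6.51 to 7.18 in the 8 L10 arrays and from 10.93 over 11.26 to 11.60 in the 8 L13 arrays. The groups were far apart, and all L10 values lay below the background level. The difference of measured signals was 4.86 ± 0.25 (SE), with limma's adjusted p of 5.27e-19. The L13 mean was 2.92-fold above the background level. Groups without overlap were a condition for naming the 15 largest rises and falls, so the lack of overlap in those genes is no result. Most list members below were named for a small adjusted p, which favours groups without overlap, so it is no separate result there either. MYH1B, a further fast heavy chain of the same gene cluster, had a median of 9.53 (8.83 to 10.11) in L10, close to the background level, and of 11.57 (11.19 to 11.77) in L13. The rise of MYH1B was 2.07 ± 0.14 (adjusted p = 2.15e-15). Fast heavy chain genes of the chicken are very alike, so the probe sets may share signal between them.

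Of 12 myosin heavy and light chain genes measured, 9 rose (75%) and 2 fell (16.7%, near the 15.2% of all probe sets). MYH1A (1.26), the slow or cardiac chain MYH7 (1.05) and the slow light chain MYL3 (0.90) were among those that rose. The 2 that fell were MYL4, the embryonic and atrial light chain, and MYH15, a heavy chain known as ventricular in the chicken heart. MYL4 fell by 1.0 from a mean of 11.47 ± 0.19 to 10.47 ± 0.18 (SD, n = 8 arrays each), and MYH15 fell by 1.16 from 9.02 ± 0.29 to 7.86 ± 0.27. In both genes all L13 arrays were below all L10 arrays. The median change of the 12 genes was 0.75.

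Thin filament genes rose together, 10 of 11 measured and none falling, with a median of 1.06. The troponins, which make the filament respond to calcium, took part in their fast and slow forms. The fast forms TNNT3, TNNI2 and TNNC2 rose by 1.11 ± 0.11, 1.06 ± 0.14 and 1.21 ± 0.21 (SE). The slow forms TNNC1 and TNNI1 rose by 1.19 ± 0.13 and 0.53 ± 0.11. LMOD2, which nucleates actin, rose by 1.62 from a mean of 7.88 to 9.50. ACTA1 was near the top of the range at both days and still rose by 0.51 ± 0.07, with all L13 arrays (13.86 to 14.10) above all L10 arrays (13.22 to 13.58). TPM1, a tropomyosin, rose by 0.33.

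**Figure D1:**
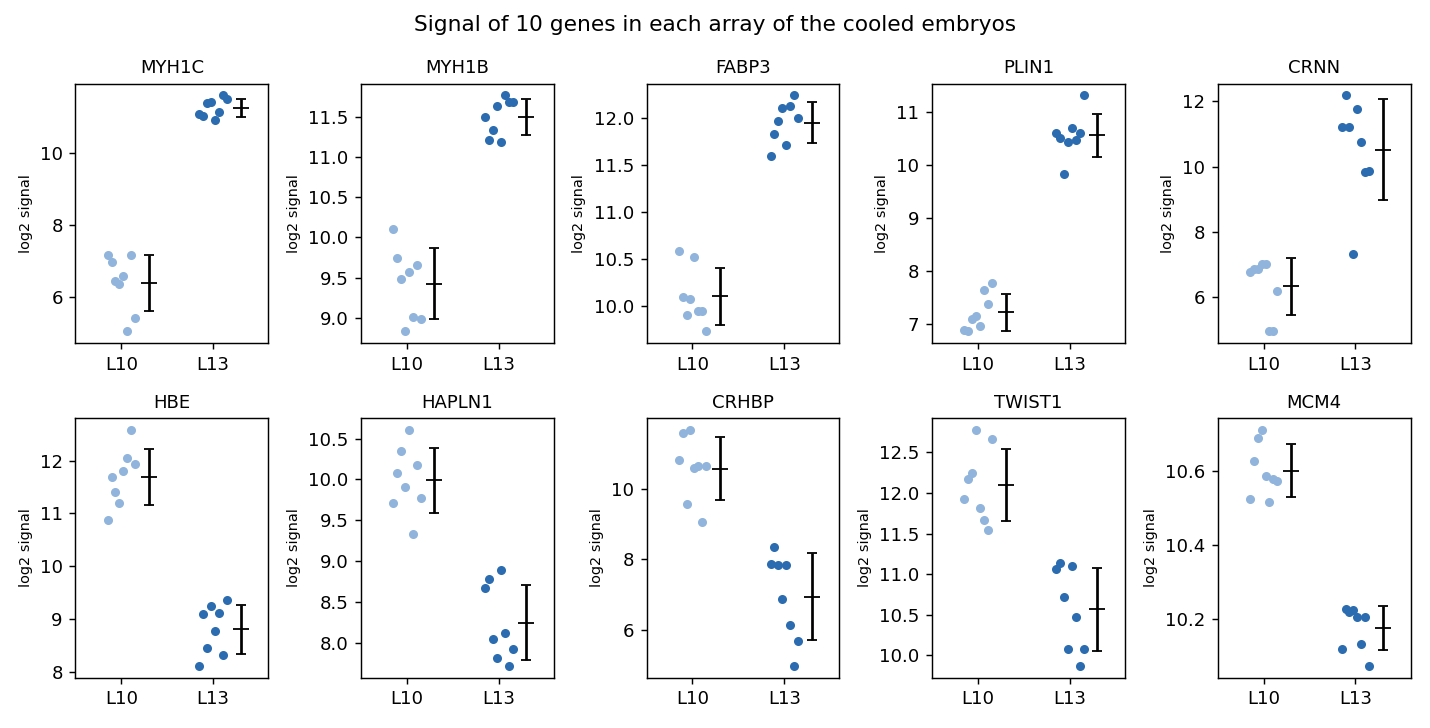
Log2 signal of 10 genes in each of the 8 L10 (light) and 8 L13 (dark) arrays, with the mean and SD beside the points; the vertical axes differ between panels and do not start at 0. All but MCM4 were named under a rule that required groups without overlap, and MCM4 was named for a small adjusted p. The L13 array with the lowest CRNN value, 7.32, lies close to the highest L10 array at 7.03.

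Of 26 genes of the Z-disc, the M-band and the partners of the thick filament, 18 rose and 1 fell, with a median of 0.74. MYBPC1, the slow myosin-binding protein C, rose by 1.72 ± 0.13 to a mean of 12.49. MYOM2, which crosslinks thick filaments at the M-band, rose by 1.34, the giant spring protein TTN by 0.84, the calcineurin-binding Z-disc protein MYOZ1 by 1.66 and the muscle LIM protein CSRP3 by 1.57. CAPN3, a muscle protease that binds titin, rose by 2.34 from a mean of 7.00 to 9.35, below the background level at both days. The stress-responsive ANKRD1 was the single gene that fell, by 0.44 (adjusted p = 0.0336), and this call was lost in 8 of 16 fits without a single array, with an adjusted p of up to 0.0931. Several other genes among the largest rises are known from muscle. These were TXLNB (1.78), MURC, a protein of muscle caveolae (1.75), and KY, a muscle protein named after a mouse with a bent spine (1.75). MURC ran from 8.17 to 8.88 in L10 and from 10.04 to 10.54 in L13.

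Genes that couple excitation to contraction rose in 7 of 13 cases (53.8%) and fell in 1 (7.69%). CACNA1S, the voltage sensor of the transverse tubule, rose by 1.21 ± 0.15, JPH2, which holds the tubule to the calcium store, by 1.06, and CASQ2, a calcium buffer within the store, by 0.89. TRDN, which anchors calsequestrin, rose by 1.39. PVALB, a cytosolic calcium buffer of fast fibres, was dim in both groups and fell by 0.75 (adjusted p = 0.00747), with overlapping groups, and was at -0.653 (adjusted p = 0.0534) in a fit with the cartilage marker mean. At the neuromuscular junction 5 of 11 genes rose (45.5%) and 1 fell (9.09%, below the 15.2% of all probe sets). CHRNG, the embryonic subunit of the acetylcholine receptor, ran from 9.25 to 10.35 in L10 and from 10.71 to 11.40 in L13 and rose by 1.13 ± 0.14, and COLQ, the collagen tail that anchors acetylcholinesterase, by 0.91. RAPSN, which clusters the receptors, rose by 0.55 and the neuregulin receptor gene ERBB2 by 0.25, a call that was lost with the cartilage marker mean (0.157, adjusted p = 0.0937). The transcription factor gene ETV5 fell by 0.33 (adjusted p = 0.0262). Without any 1 of 4 arrays (L10 embryos 51, 54 and 60, L13 embryo 74) that call was lost, with an adjusted p of up to 0.0545.

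The dystrophin complex links the contractile apparatus to the matrix around the fibre, and 7 of its 13 genes rose while 1 fell. DAG1, the dystroglycan receptor, rose by 0.996 ± 0.09, DMD, dystrophin itself, by 0.87, SSPN, sarcospan, by 0.86 and DTNA by 0.72. No L13 array overlapped with L10 in these 4 genes, which were named for a small adjusted p. In the whole list every L13 array lay above every L10 array in 6 of 13 genes, against 3.36% of all probe sets. DTNB, the second dystrobrevin, fell by 0.40 from 8.93 ± 0.15 to 8.53 ± 0.18. Among ubiquitin ligase genes known from muscle, 11 of 15 rose and none fell, with a median of 0.70. The largest of these were ASB14 (1.6) and ASB18 (1.42), substrate receptors of the ASB family, both below the background level, and ASB15 rose by 0.88. TRIM55, a ligase of the sarcomere, rose by 0.91, and the atrophy-related TRIM63 and FBXO32 by 0.70 and 0.52. ASB15, TRIM63 and FBXO32 lay below the background level in all cooled arrays too.

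Factors that specify muscle cells rose in part. Of 20 myogenic and fusion genes, 7 rose (35%), 1 fell (5%) and 12 did not pass the test. Among all probe sets 9.76% rose and 15.2% fell. MYOD1, which commits cells to the myogenic lineage, was 11.24 ± 0.32 in L10 and 11.12 ± 0.13 in L13 (adjusted p = 0.554). PAX7, the marker of muscle progenitors, was 10.22 ± 0.28 and 10.32 ± 0.18 (adjusted p = 0.665), and MYOG, which starts terminal differentiation, 9.12 ± 0.25 and 9.36 ± 0.23 (adjusted p = 0.177). The late factor MYF6 rose by 0.69 ± 0.14, from a median of 10.27 (9.45 to 10.41) to 10.84 (10.43 to 11.21), and the lowest L13 array was just above the highest L10 array. EYA4 rose by 0.82, the splicing regulator RBM24 by 0.51 and MEF2A, a partner of the myogenic factors, by 0.36. The activin and myostatin antagonist FST fell by 0.78 ± 0.10 (adjusted p = 2.15e-08), with L10 arrays between 8.69 and 9.24 and L13 arrays between 7.97 and 8.44.

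Among 19 regulators of fibre type and hormone response, 8 rose (42.1%) and 2 fell (10.5%, below the 15.2% of all probe sets). RCAN1, a feedback inhibitor of calcineurin, rose by 0.93 ± 0.08. PPARGC1A, a coactivator of mitochondrial genes, rose by 0.77, TEAD4 by 0.47 and SOX6, a repressor of slow fibre genes, by 0.45. MEIS1 and MEIS2, homeobox cofactors of limb and muscle genes, fell by 0.76 and 1.23.

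Genes of fuel supply rose in part. Of 30 genes of the citrate cycle and fatty acid oxidation, 16 rose and none fell, although the median was 0.16. FABP3, which carries fatty acids within muscle, rose by 1.84 ± 0.15, from 10.02 (9.74 to 10.59) to 11.99 (11.60 to 12.24). PDK4, which restrains the use of pyruvate, rose by 2.09 from a dim 6.93 to 9.02. The mitochondrial enzymes ACADL and CPT2 rose by 0.48 and 0.42. Of 47 respiratory chain and ATP synthase genes, 12 rose, 2 fell and 33 did not pass, with a median of 0.11 and no change reaching 0.5. UQCRC1 (0.30), ATP5B (0.24) and NDUFS6 (0.46) rose, each without overlap. The 2 that fell were COX6C, by 0.22, and NDUFB10, by 0.16, and the latter call (adjusted p = 0.0423) was lost in 11 of 16 fits without a single array.

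Of 27 glycolysis and glycogen genes, 8 rose (29.6%) and 4 fell (14.8%, near the 15.2% of all probe sets). PPP1R3A, which directs a phosphatase to muscle glycogen, rose by 1.68, PFKM, the muscle phosphofructokinase, by 1.29 from 7.63 ± 0.30 to 8.91 ± 0.22, the glycogen primer GYG1 by 0.55 and HK1 by 0.28. The glucose transporter SLC2A1 fell by 0.37 and ENO2, the neuronal enolase, by 0.31. All 8 genes of the phosphagen and adenylate group passed the test, 6 rising. AMPD1, the muscle AMP deaminase, rose by 1.43 and AMPD3 by 1.004. GATM, which makes the precursor of creatine, rose by 1.29 and the creatine carrier SLC6A8 by 0.61. MB, myoglobin, fell by 0.63 and AK4 by 0.37, and the call of AK4 was lost without L13 embryo 77 or 79 (adjusted p of up to 0.0521). MB was dim in both groups, with means of 7.67 and 7.03.

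CRHBP, which binds corticotropin-releasing hormone, fell. It ran from 9.07 over a median of 10.65 to 11.65 in L10 and from 4.99 over 7.35 to 8.34 in L13. Both groups were wide, and all L13 values lay below the background level. The difference of measured signals was -3.62 ± 0.38 (SE, adjusted p = 4.14e-10 in limma). The L10 mean was 1.81-fold above the background level, while the L10 arrays of embryos 55 and 60 lay below it (9.58 and 9.07). CRHBP lies on chromosome Z, of which males have a second copy, and with the W-linked signal as a covariate it fell by 3.53.

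Limb patterning genes fell in 28 of 40 cases and rose in none, with a median of -0.67. The other 12 did not pass the test, and 5 genes of the list had differences above 0. The highest of these was that of MSX2, named here after its value was seen, with 6.90 ± 0.90 in L10 and 9.13 ± 1.66 in L13 (difference 2.23, adjusted p = 0.0562 in limma). HOXA10 fell by 1.19 ± 0.11 and HOXC11 by 1.15, both homeobox genes that mark positions along the limb. PITX1 and TBX4, which give the hind limb its identity, fell by 1.53 ± 0.16 and 1.21, and TBX4 fell by 0.778 in the fit with the cartilage marker mean. PITX1 was 9.87 to 10.55 in L10 and 8.37 to 9.22 in L13. LHX9 fell by 2.45 with a wide spread in L10 (7.65 to 9.95), where embryo 61 was the lowest. The mesenchymal factors PRRX1, TWIST1 and TWIST2 fell by 1.23, 1.53 and 1.41. GLI3, through which hedgehog signals act on transcription, had the smallest adjusted p of the list (2.16e-14), falling by 0.85 from 11.45 ± 0.14 to 10.61 ± 0.09. HMGA2, a chromatin protein of early growth, fell by 0.86. GREM1, a BMP antagonist of the limb bud, fell by 1.29 and the bud growth factor FGF10 by 0.98.

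Further large falls were those of single genes of signalling pathways. DKK2, a secreted Wnt modulator, fell by 1.5 ± 0.13 from 10.84 ± 0.24 to 9.34 ± 0.26. The transcription factor LEF1 fell by 1.52 and the membrane-bound Wnt inhibitor APCDD1 by 1.49. The calls of TWIST1, TWIST2, LEF1 and APCDD1 remained in a fit that held the skin marker mean as well. In that fit these genes fell by 1.67, 1.54, 1.67 and 1.65. Each adjusted p was far smaller there, as in TWIST1 (1.53e-06 without and 3.43e-12 with the skin marker mean in limma). So the signals of these genes varied with the skin marker mean between arrays. The part of skin in their falls was not tested. ROBO2, a receptor for guidance cues of the SLIT family, fell by 1.66 and ASIP, the agouti signalling protein of pigmentation, by 1.55. CRABP1, which binds retinoic acid in the cell, fell by 1.44 and the growth factor PTN by 1.43. With the cartilage marker mean as a covariate CRABP1 fell by 0.80, PTN by 0.61 and LHX9 by 1.45. PRLHR2 fell by 1.41, and CHODL, chondrolectin, by 1.39.

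Genes of cell division fell by small amounts. Of 41 DNA replication genes 32 fell and none rose, with a median of -0.31, and of 43 genes of mitosis and the kinetochore 29 fell and none rose, with a median of -0.35. No member of either list fell by as much as 0.6. MCM4 and MCM3, parts of the replicative helicase, fell by 0.43 and 0.42, the ligase LIG1 by 0.49 and UHRF1, which keeps DNA methylation, by 0.34. MCM4 was between 10.52 and 10.71 in L10 and between 10.07 and 10.23 in L13. The members named here were picked for a small adjusted p, which favours groups without overlap. Every L13 array lay below every L10 array in 10 of the 41 replication genes and 14 of the 43 mitosis genes, and in 4.27% of all probe sets. KPNA2 (0.42), TOP2A (0.42), TPX2 (0.40) and FOXM1, the factor that drives mitotic genes (0.495), fell as well. The 47 cytosolic ribosomal protein genes had a median of -0.02, with 1 rising and 3 falling.

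The matrix changed in both directions. Of 36 genes of fibrillar collagens and matrix assembly, 10 rose (27.8%) and 13 fell (36.1%). COL6A3 and COL6A2, collagen VI chains around muscle fibres, rose by 0.65 and 0.33, the microfibril protein MFAP5 by 0.61 and POSTN, periostin, by 0.50. TNC, tenascin, fell by 1.26 ± 0.21 and by 0.669 in the fit with the cartilage marker mean. FN1, fibronectin, fell by 0.29, FBLN1 by 0.49, and the connective tissue factors OSR1 and TCF7L2 by 0.51 and 0.44. Of 19 genes of the basement membrane and its integrin receptors, 7 rose (36.8%) and 4 fell (21.1%), against 9.76% and 15.2% of all probe sets. The collagen IV chains COL4A1 and COL4A2 rose by 0.68 and 0.76, the laminin chain LAMA4 by 0.57 and ITGA6 by 0.64. LAMA1, the laminin chain of early basement membranes, fell by 1.58 from 9.29 ± 0.46 to 7.71 ± 0.40, and the integrins ITGA8 and ITGA4 fell by 0.84 and 0.54.

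Cartilage markers fell in 11 of 18 genes and rose in 1, with a median of -0.85. Without dim probe sets the median was -0.4. The mean of the list lay between 8.18 and 9.27 in L10 and between 7.63 and 7.98 in L13. HAPLN1, which ties hyaluronan to proteoglycan, ran from 9.34 over 9.99 to 10.60 in L10 and from 7.73 over 8.09 to 8.90 in L13, and fell by 1.74 ± 0.40 (adjusted p = 0.000798). MATN1 fell by 2.12, the cartilage collagens COL9A1 and COL9A3 by 2.46 and 1.40, and SOX9, the master factor of chondrocytes, by 1.04. The single gene that rose was COMP, by 0.49. With the mean of these markers as a covariate, SOX9 still fell by 0.64 (adjusted p = 0.000214), and the calls of HAPLN1 (-0.67, adjusted p = 0.122), MATN1 (-0.55, adjusted p = 0.0618), COL9A1 (-0.17) and COL9A3 were lost. All 5 genes are themselves part of that mean. Of 7 tendon markers 2 rose and 2 fell (28.6% each), against 9.76% and 15.2% of all probe sets. EGR1, which also responds to mechanical load, rose by 0.82 and FMOD by 0.93 (adjusted p = 0.0228), while CHODL and TNMD, tenomodulin, fell, the latter by 0.71. In the fit with the cartilage marker mean FMOD rose by 1.74 (adjusted p = 4.18e-07) and the call of TNMD was lost (-0.291, adjusted p = 0.352). The call of FMOD was lost without L10 embryo 56 or L13 embryo 75 (adjusted p of up to 0.0751).

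**Figure D2:**
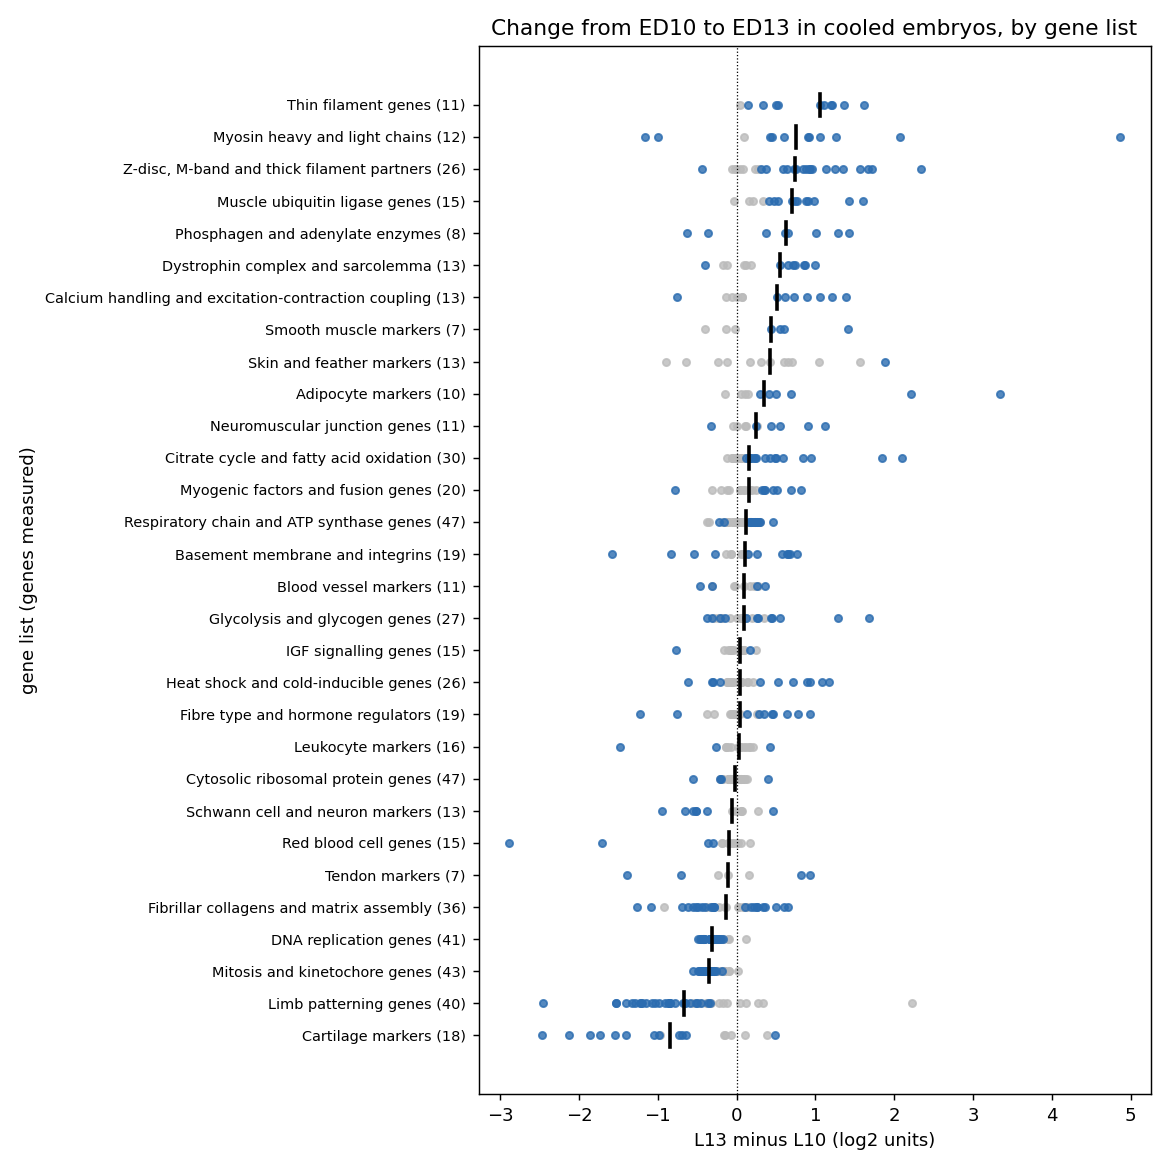
Each point is the L13 minus L10 difference (log2 units) of 1 gene in 1 of 30 gene lists, blue where limma's adjusted p was under 0.05 and grey otherwise; black bars are list medians, and the number of genes measured is given beside each name. Lists of the contractile apparatus lie to the right, with thin filament genes at 1.06, and limb patterning genes and cartilage markers to the left, at -0.67 and -0.85.

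CRNN, cornulin, a gene of the differentiating epidermis, rose by 4.18 ± 0.62 in measured signal (adjusted p = 9.72e-07 in limma). Its L10 values ran from 4.97 over 6.82 to 7.03 and its L13 values from 7.32 over 10.99 to 12.17, and the lowest L13 value belonged to embryo 75, the array with the lowest skin marker mean. All L10 values lay below the background level, as did the L13 value of embryo 75, and the L13 mean was 1.75-fold above it. The skin and feather marker list itself showed 1 of 13 genes past the test (7.69%, a rise, against 9.76% of all probe sets). Its mean ranged from 7.99 to 9.76 in L10 and from 6.38 to 10.38 in L13, so the ranges overlapped widely. KRT5, a keratin of the basal epidermis, was 8.91 ± 0.76 in L10 and 9.51 ± 1.44 in L13 (adjusted p = 0.627). GRHL1, a factor of the outer epidermis, rose by 1.88 ± 0.71 (adjusted p = 0.046), and its call was lost in 12 of 16 fits without a single array, with an adjusted p of up to 0.0984. In the fit with the skin marker mean CRNN rose by 3.79 and GRHL1 by 1.36, and GRHL1 is itself part of that mean.

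Of 15 red blood cell genes, 4 fell and none rose, with a median of -0.10. The embryonic globin HBE ran from 10.87 over 11.75 to 12.58 in L10 and from 8.11 over 8.94 to 9.35 in L13. The difference was -2.88 ± 0.32 (limma's adjusted p = 2.24e-09). All L13 values of HBE lay under the background level, and its L10 mean was 3.95-fold above it. HBZ, an embryonic globin of the alpha cluster, fell by 1.70 ± 0.25, below the background level in both groups. HBAD, an alpha-type globin found in embryos and adults, was much brighter and fell by 0.29 from 13.09 ± 0.20 to 12.79 ± 0.29. This call (adjusted p = 0.0414) was lost in 9 of 16 fits without a single array. The iron receptor TFRC fell by 0.37. Globin genes are alike in sequence and may share signal between probe sets.

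Adipocyte markers rose in 6 of 10 genes and fell in none. PLIN1, the coat protein of lipid droplets in fat cells, ran from 6.86 over 7.11 to 7.77 in L10 and from 9.82 over 10.55 to 11.30 in L13. The rise was 3.34 ± 0.27 (limma's adjusted p = 3.75e-13). All L10 values of PLIN1 lay below the background level, and its L13 mean was 1.79-fold above it. ADIPOQ, adiponectin, rose by 2.22, from a dim 6.89 to 9.11, G0S2 by 0.69 and KLF15 by 0.50. AHSG, a plasma glycoprotein known mainly from liver, rose by 2.68 ± 0.27 and was between 6.34 and 8.09 in L10 and between 9.61 and 10.49 in L13. ETNPPL, an enzyme of phosphoethanolamine breakdown, rose by 2.0, SLC22A16, a carnitine carrier in man, by 1.67 and C17orf58 by 1.82.

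Of 7 smooth muscle markers 4 rose and none fell, led by MYH11, the smooth muscle heavy chain, which rose by 1.41 from 8.04 ± 0.38 to 9.45 ± 0.65, and RGS5, a pericyte gene, rose by 0.44. MYH11 was highest in the L13 arrays of embryos 73 and 76 (10.27 and 10.20) and lowest in those of embryos 75 and 79 (8.59 and 8.63), which also had the 2 highest and 2 lowest skin marker means of L13 (10.38 in both and 6.38 and 8.22). Of 11 blood vessel markers 2 rose and 2 fell (18.2% each), against 9.76% and 15.2% of all probe sets. PECAM1 rose by 0.36 and the endothelial factor ERG fell by 0.47, a call that was lost with the cartilage marker mean (-0.219, adjusted p = 0.154). Of 13 markers of Schwann cells and neurons 6 fell and 1 rose. ELAVL4, a neuronal RNA-binding protein, fell by 0.94 and NGFR, the low-affinity neurotrophin receptor, by 0.52, and the myelin gene PMP22 rose by 0.46. Of 16 leukocyte markers 1 rose (6.25%) and 2 fell (12.5%), no more than among all probe sets, with CD74 rising by 0.42 and CD4 falling by 1.48. The part of these cell types in the changes of other genes was not tested.

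Chaperones were followed because the embryos had been cooled. Of 26 heat shock and cold-inducible genes 7 rose (26.9%) and 4 fell (15.4%, near the 15.2% of all probe sets), with a median of 0.04. The genes that rose included the small heat shock proteins HSPB1 (1.08 ± 0.12) and HSPB3 (0.89), the latter known from muscle, and HSPA2 (1.17) and DNAJB5 (0.71). HSPA2 was highest in L13 embryos 73 and 76 (11.41 and 11.06) and lowest in 75 and 79 (10.11 and 10.24). Those arrays also had the highest and lowest skin marker means of L13, and the part of skin in this rise was not tested. The 4 that fell were HSPH1 (0.62), HSPA8 (0.21), HSF2 (0.30) and HSP90AB1 (0.31). The cold-inducible RNA-binding protein gene RBM3 was 12.40 ± 0.13 in L10 and 12.47 ± 0.05 in L13 (adjusted p = 0.373). Both groups had been cooled up to sampling, so the contrast does not compare cooled with uncooled muscle. Of 15 genes of IGF signalling, 1 rose and 1 fell (6.67% each), no more than among all probe sets (9.76% and 15.2%). Of these 15 genes 6 had a mean above the background level in L10 or L13. IGF2 fell by 0.77 ± 0.14 from 9.17 ± 0.32 to 8.41 ± 0.20, EIF4EBP1, a brake on translation, rose by 0.17, and IGF1 was 9.25 ± 0.30 and 9.22 ± 0.19 (adjusted p = 0.927).

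The same step was then set beside that of the control embryos, to ask whether cooling altered it. A shift by cooling that is alike at ED10 and ED13 cancels in this contrast, which therefore does not ask whether cooling altered the muscle. A lack of probe sets past the test does not show that the changes were equal. In control embryos 2435 probe sets rose (11.8%) and 3404 fell (16.4%). No probe set (0%) had a change that differed between cooled and control embryos at an adjusted p of 0.05 in limma, and 720 (3.48%) did at an unadjusted p of 0.05, where 5% would pass with no difference. Of the 513 probe sets that changed by at least 1 log2 unit in cooled embryos, 512 had the same sign in control and 507 in warmed embryos. Over all probe sets the changes of cooled and control embryos correlated at r = 0.86, those of control and warmed embryos at 0.85 and those of cooled and warmed embryos at 0.786. The probe sets are not independent and were normalized together. Cooled embryos all have higher and warmed embryos all lower label numbers, while controls have both. MYH1C rose by 4.86 in cooled, 4.62 in control and 4.95 in warmed embryos. HBE fell by 2.88, 2.89 and 2.53 and PLIN1 rose by 3.34, 3.13 and 3.33. CRNN rose by 4.18 in cooled and 2.45 in control embryos and had a difference of 1.32 in warmed embryos that did not pass the test (adjusted p = 0.117). The difference of CRNN from control embryos had an unadjusted p of 0.0555 in the fit over all genes, and that from warmed embryos an adjusted p of 0.105. In cooled, control and warmed embryos the list medians were 1.06, 1.04 and 0.91 for thin filament genes, -0.67, -0.58 and -0.55 for limb patterning genes and -0.31, -0.42 and -0.37 for DNA replication genes. Other lists were further apart, with -0.85, -0.85 and -0.36 for cartilage markers, 0.43, 0.15 and -0.21 for skin and feather markers, 0.04, 0.17 and 0.39 for fibre type regulators and -0.14, 0.01 and 0.15 for the fibrillar matrix. These differences between medians were not tested.

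**Figure D3:**
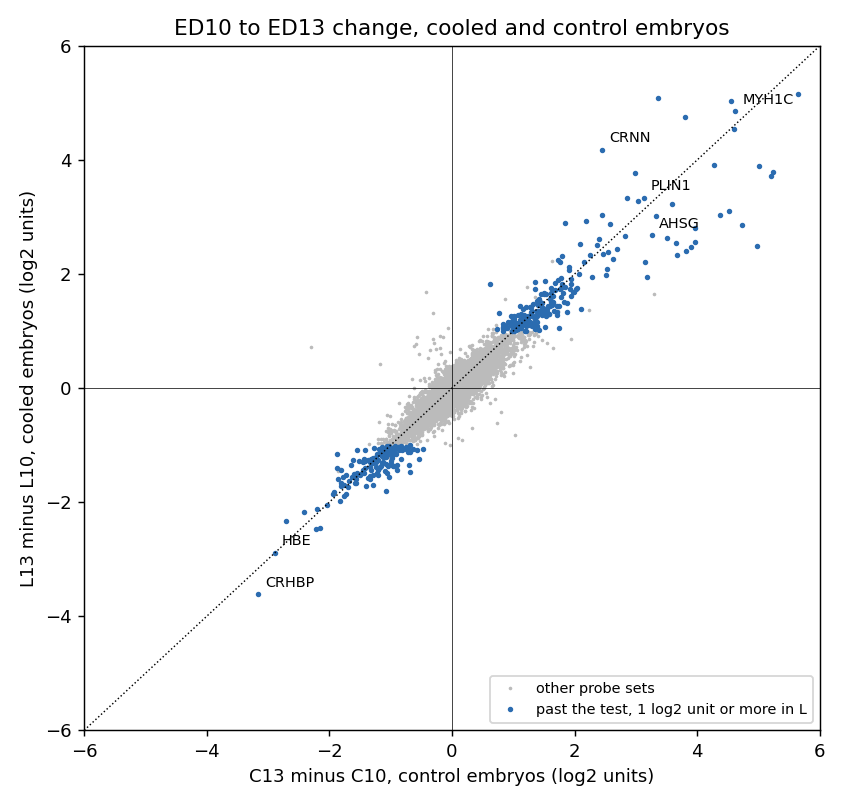
Each point is a probe set, with the change from C10 to C13 in control embryos on the horizontal axis and the change from L10 to L13 in cooled embryos on the vertical axis (log2 units); blue points passed the test with at least 1 log2 unit in cooled embryos, and the dotted line marks equal change. Of the 513 blue points 512 have the same sign on both axes, and CRNN lies above the line at 4.18 against 2.45.

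The 10 named genes with the smallest p for a difference between cooled and control embryos all had an adjusted p of 1, so none passed. The smallest was that of CGTL, which fell by 0.96 in cooled embryos and changed by -0.11 in control embryos (difference -0.85 ± 0.22, unadjusted p = 0.000269 in limma). Its means were 9.70 in L10 and 8.74 in L13 against 9.02 in C10 and 8.91 in C13, so cooled and control embryos lay further apart at ED10 than at ED13. LOC427882 fell by 0.91 in cooled embryos and was 10.88 in C10 and 11.04 in C13. The flap endonuclease FEN1, which trims DNA ends in replication, fell by 0.23 in cooled and by 0.54 in control embryos (difference 0.31 ± 0.09). RNH1, a ribonuclease inhibitor, changed by 0.08 and -0.21 (difference 0.30). The exosome gene EXOSC2 (0.45) and RPUSD1 (0.38) had differences above 0, as had MIR29A (1.47), whose means from 2.62 to 3.69 were the lowest of the genes named. FKBP14 (-0.54), GADL1 (-0.54) and ADCY1 (-0.34) had differences below 0. With only the 4 controls per day with higher label numbers, as all cooled embryos have, no probe set passed either.

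Against warmed embryos 54 probe sets had a higher change in cooled embryos (0.261%) and 133 a lower one (0.642%), 187 in all. In warmed embryos alone 2954 probe sets rose (14.3%) and 2558 fell (12.4%). Of the 187 probe sets 64 were below the background level in the cooled embryos, and 134 had a gene symbol. In all 187 the change in control embryos lay on the same side of the warmed change as that in cooled embryos. Both differences share the warmed arrays. Between cooled and control embryos 59 of the 187 had an unadjusted p under 0.05 in limma. All warmed embryos carry lower and all cooled embryos higher label numbers, and warmed eggs had more humidity, so temperature, humidity and label number cannot be told apart in this contrast. The count also moved with single arrays. It was 426 without L10 embryo 59 and between 93 and 121 without any 1 of 10 other arrays (H10 embryos 13, 14 and 16, H13 embryo 28, L10 embryos 55, 56 and 57, and L13 embryos 73, 76 and 77).

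The NEDD4 adaptor NDFIP2 had the smallest adjusted p. It changed by -0.10 in cooled and -0.08 in control embryos and rose by 0.27 in warmed embryos (cooled minus warmed -0.37, adjusted p = 0.00354). GAB1, an adaptor of growth factor receptors, changed by 0.06, 0.36 and 0.62 in cooled, control and warmed embryos. PRR33 rose in each, by 0.91, 1.41 and 1.86. SOX4, a factor of progenitor cells, fell by 0.57 in cooled and by 0.41 in control embryos and changed by -0.05 in warmed embryos (cooled minus warmed -0.52, adjusted p = 0.00706). In L10 arrays SOX4 was between 12.27 and 12.60 and in L13 arrays between 11.80 and 12.02. FIGN (-0.39, -0.23 and 0.10), NFIC (-0.38, -0.29 and 0.13) and TNS1, a tensin of focal adhesions (-0.33, -0.22 and 0.12), followed the same order of changes, as did DOK5 (-0.32, 0.02 and 0.59). LOC423693 (-0.25, -0.47 and -0.71) and RBMXL3 (-0.02, -0.12 and -0.40) had changes closest to 0 in cooled embryos. All cooled arrays of PRR33, FIGN, DOK5 and RBMXL3 lay below the background level, as did all L13 arrays of NFIC. HMGA2 fell by 0.86 in cooled, 0.73 in control and 0.37 in warmed embryos, with a difference of -0.49 (adjusted p = 0.0104), and RNH1 had a difference of 0.38 (adjusted p = 0.0207). Neither HMGA2 nor RNH1 was among the 10 genes with the smallest p here. The contrasts with control and warmed embryos share the cooled arrays, so they are not separate evidence.

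**Figure D4:**
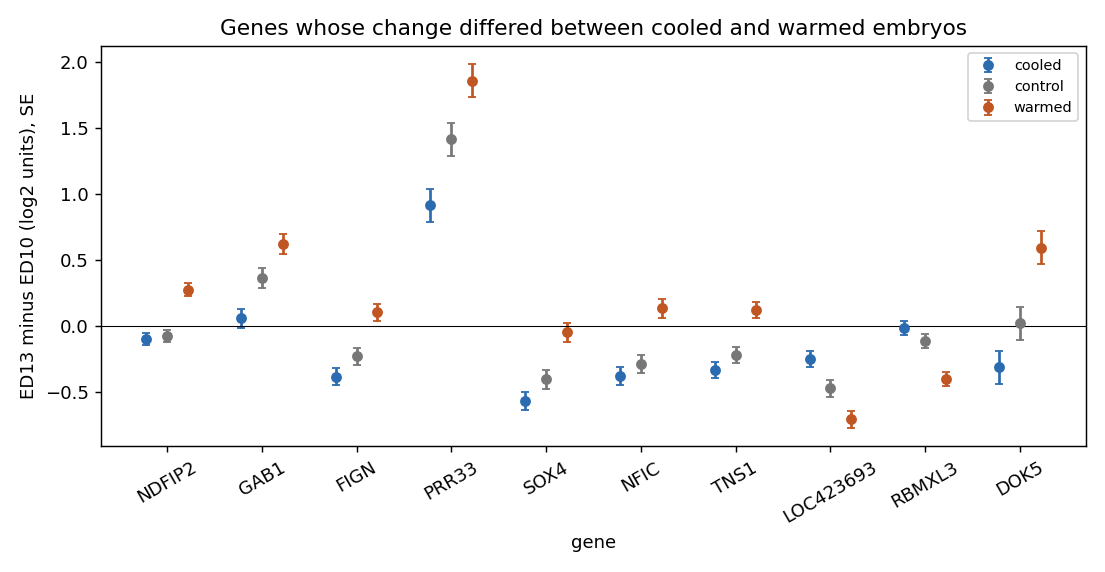
Change from ED10 to ED13 (log2 units, with SE) of the 10 named genes with the smallest p for a difference between cooled (blue) and warmed (orange) embryos, with control embryos in grey. PRR33 rises in all 3 treatments, by 0.91, 1.41 and 1.86, and NDFIP2 rises by 0.27 in warmed embryos and is at -0.10 and -0.08 in cooled and control embryos. PRR33, FIGN, DOK5 and RBMXL3 lie below the background level in all cooled arrays.

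To place each embryo along the ED10 to ED13 step of warmed embryos, each array was projected on the difference between H13 and H10. All 20706 probe sets were used, and on this scale the mean of H10 is 0 and that of H13 is 1. H10 and H13 differ in age and also in the days on which they were warmed at a higher humidity. A position therefore does not measure age alone. Cooled and control embryos took no part in setting this scale. The L10 arrays lay between -0.10 and 0.09, with a median of 0.03, and the L13 arrays between 0.47 and 0.94, with a median of 0.82. L13 was 0.743 higher than L10, which has a two-sided exact permutation p of 0.000155 (adjusted p = 0.000465 over 3 comparisons), the smallest that 12870 splits of 8 against 8 arrays can give. The scale is itself a difference between ED13 and ED10, so a higher L13 position was all but fixed in advance. That p-value is no separate evidence of a change with age. At ED10 cooled and control embryos had like positions, 0.0169 ± 0.07 and 0.0344 ± 0.097 (difference -0.0176, exact permutation p = 0.688). With only the 4 controls of the higher label numbers this difference was 0.0415 (exact permutation p = 0.448), so its sign is not settled.

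At ED13 the L13 embryos had a mean position of 0.76 ± 0.165 and the C13 embryos of 0.953 ± 0.0787 (SD, n = 8 each). The difference of -0.193 had an exact permutation p of 0.00591 (adjusted p = 0.00887). The adjustment counted the comparison of L13 with L10, which was all but fixed in advance, so the adjusted p is lower than without it. Against the 4 C13 arrays of the higher label numbers the difference was -0.185 (exact permutation p = 0.0485). Of the 8 L13 arrays 3 lay below 0.65, those of embryos 75, 79 and 72 at 0.47, 0.62 and 0.63, and the lowest C13 array was at 0.85. Embryos 75 and 79 also had the lowest skin marker means of L13, 6.38 and 8.22, and embryo 72 had 9.98. The skin marker mean was 9.21 ± 1.36 in L13 and 9.27 ± 1.46 in C13, and the cartilage marker mean was 7.82 ± 0.118 and 7.92 ± 0.495. Without the probe sets of the skin, cartilage, tendon and red blood cell lists, the difference was -0.194. These lists hold 13, 18, 7 and 15 genes beside 20706 probe sets, so leaving them out could hardly move a position. The part of these tissues in the difference was not tested by it. Without L10 embryo 59 and L13 embryo 75 it was -0.152 (exact permutation p = 0.0106). The H13 embryos that set the scale were wider than the others, from 0.57 to 1.28. A lower place in development and a response to temperature cannot be told apart in the difference between L13 and C13.

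**Figure D5:**
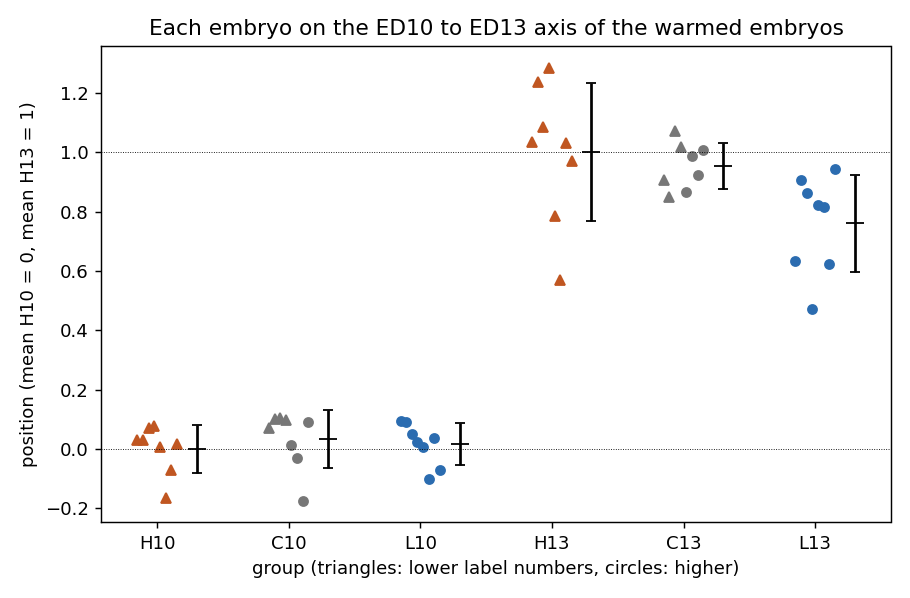
Position of each embryo on the ED10 to ED13 axis of the warmed embryos (mean of H10 = 0, mean of H13 = 1), by group, with mean and SD beside the points; triangles are embryos with lower and circles embryos with higher label numbers. The L13 arrays, from 0.47 to 0.94, lie above all ED10 arrays, with a lower mean than C13 (0.76 against 0.953).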

How the data were processed

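Total RNA of 1 muscle sample per embryo had been labelled and hybridised to Affymetrix chicken gene arrays. The deposited values are log2 signals that the authors had normalized, and the submitters' processing notes name GCOS 1.1.1. The normalization method and the genome build are not given in the sources used here. A second deposited table held the same log2 values. The number of arrays limits the precision.

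Group means were fitted to the 48 embryo arrays with limma 3.58.1 (R 4.3.3) and eBayes, and Benjamini-Hochberg adjustment ran over 20706 probe sets with a threshold of 0.05. Left out were 98 control probe sets and the 40 arrays of D35 chickens. Values without another note are log2 differences between L13 and L10. Symbols came from the array annotation (12300 probe sets with 1 symbol, 256 with several), and each gene was represented by its probe set with the highest mean in cooled embryos.

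Comparisons and gene lists were chosen with earlier results of these data known. Named genes were the 15 largest rises and 15 largest falls past the test with groups that did not overlap and the higher mean above the background level, up to 4 members of each list and direction with the smallest adjusted p, members whose role was needed, and the 10 smallest p of each comparison of changes. Positions were compared by exact permutation. As alternatives, quantile normalization, centring, a filter on dim probe sets, eBayes with trend and robust settings, arrayWeights, marker means as covariates, subsets of groups or controls, the second table and fits without single arrays were run. Planned promoter motifs were not run, since no sequence was used here. Figures were made in Python 3.11.15 with matplotlib 3.10.9.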

Additional observations from a re-analysis of the deposited data

Results flagged for a closer look

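Single arrays stood far from the other 7 of their group in 20 of 386 pairs of a named gene and a group, which is near the 1 in 20 that chance gives, and in 4 of 60 pairs of a gene list and a group. Each is given with its log2 signal and that of the nearest array. The L10 array of embryo 59 was low in MEIS2 (8.25 against 9.20), UHRF1 (11.5 against 11.7), HSPA2 (9.08 against 9.44), HSF2 (10.0 against 10.3) and ASB14 (4.68 against 5.81). It was also low in the means of the lists of basement membrane and integrin genes (9.93 against 10.1), blood vessel markers (9.21 against 9.45), leukocyte markers (7.53 against 7.77) and Schwann cell and neuron markers (8.31 against 8.46). The L10 array of embryo 61 was low in MYH1A (7.04 against 7.84), LHX9 (7.65 against 9.12), DNAJB5 (8.54 against 9.12) and TRIM63 (7.48 against 7.97).

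Among L13 arrays, that of embryo 75 was high in UQCRC1 (10.9 against 10.8), ATP5B (13.0 against 12.8) and NDUFS1 (11.5 against 11.3) and low in the epidermal gene GRHL1 (6.33 against 9.53). Embryo 74 was low in C17orf58 (9.65 against 9.94), embryo 73 in LMOD2 (8.86 against 9.44), embryo 76 in HK1 (10.2 against 10.4) and embryo 77 in COL6A2 (12.3 against 12.4). Embryo 77 was high in MB (7.48 against 7.07), and embryo 83 in TRDN (9.66 against 9.16) and PECAM1 (10.5 against 10.4).

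The change from ED10 to ED13 differed between cooled and warmed embryos in 187 probe sets by the interaction term in limma. Among the genes named, the change in cooled minus that in warmed embryos was -0.373 in NDFIP2, -0.561 in GAB1, -0.486 in FIGN, -0.942 in PRR33, -0.519 in SOX4, -0.51 in NFIC, -0.454 in TNS1, -0.906 in DOK5 and -0.489 in HMGA2. It was 0.458 in LOC423693, 0.389 in RBMXL3 and 0.381 in RNH1.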

How the results depend on the processing

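No paired analysis was possible because every embryo number is used once and no number is shared between the groups compared. The counts of probe sets that rose (2020) or fell (3150) from L10 to L13 stayed within 1.5 times under all alternatives except leaving out dim probe sets. So did the counts of those doing so by at least 1 log2 unit (338 and 175). Without dim probe sets the counts were 753, 1168, 73 and 26, in that order. That setting leaves fewer to test, so lower counts do not mean a lower share, and it also drops genes bright at only ED10 or ED13. Leaving out single arrays gave 1832 to 2039, 2796 to 3762, 313 to 350 and 159 to 216. The count of changes that differed from control embryos stayed at 0 in all 45 alternatives. That of changes differing from warmed embryos (187) was 364 with quantile normalization, 337 with centring, 309 without dim probe sets, 930 with arrayWeights and 407 without L10 embryo 59 and L13 embryo 75, a setting chosen after the data were seen. It ran from 93 to 426 when single arrays were left out, and the cause was not tested.

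The position of L13 minus L10 was 0.717 to 0.784 and that of L13 minus C13 was -0.219 to -0.152 without single arrays of the groups compared. Both kept their side of the threshold in all alternatives run, and for L13 minus L10 this was all but fixed in advance. The scale was not rebuilt without single H10 or H13 arrays, and no marker mean was held as a covariate for positions. How far the difference from C13 depends on these was not tested. The position of L10 minus C10 (-0.0176) reversed to 0.0415 with controls of the higher label numbers and was -0.0473 to -0.000905 without single arrays. Of the named genes past the test from L10 to L13, none reversed. Of those that had not passed, IGF1 (-0.112 to 0.0308) and RBMXL3 (-0.0371 to 0.0116) changed sign without single arrays. The call of MIR29A (adjusted p = 0.0309) was lost in 4 of 16 fits without a single array. With the cartilage marker mean as a covariate 16 calls were lost. In 7 of these the value moved by over 1.5 times (HAPLN1, MATN1, COL9A1, COL9A3, ERBB2, ERG and TNMD). The other 9 were PVALB, TFRC, GADL1, AK4, ETV5, ANKRD1, HBAD, NDUFB10 and GRHL1, whose values moved less. Of 30 list medians 19 stayed within their spread in all alternatives. Without dim probe sets the median of cartilage markers was -0.4, that of thin filament genes 0.796, that of adipocyte markers -0.0466 and that of the fibrillar matrix 0.0276.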
